A study of Mus musculus with 6 samples.

Results

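Collagen chain genes encode the subunits of the collagens, the proteins that give bone matrix its tensile strength. The genes were followed in the femurs of mice that had lost blood by phlebotomy and in control femurs. The genes were all protein-coding rows of the deposited scaled table whose symbol is Col, a number, a and a number, and 43 of its 28526 mouse genes met that rule. By structural class there were 11 fibrillar genes, 8 network genes, 6 beaded-filament genes, 9 FACIT genes (fibril-associated collagens with interrupted helices) and 9 of other kinds. Col4a6 did not meet the rule, and it held 8 counts over the 6 libraries in the raw counts.

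The series asked how the transcriptome of primary osteocytes, the cells embedded in bone matrix, differs after blood loss. Total RNA came from osteocyte-enriched fractions of femur bone of C57BL/6 mice aged 12 weeks and given the genotype WT in both groups, 3 libraries after phlebotomy and 3 from controls. The interval between blood removal and sampling is not given in the sources used here, and no label ties each library to its own animal, so the p-values reflect only how these libraries vary, which may be technical. Libraries are named by their column number, phlebotomy 1, 2 and 4 and control 1, 2 and 4. The group of a column rests on its initial, P for phlebotomy and N, by elimination, for control.

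Collagen chains wind around each other in groups of 3 through repeats rich in glycine and proline. Fibrillar collagens, of which type I makes up most of the organic matrix of bone, pack into striated fibrils. Network collagens form sheets such as basement membranes, beaded filaments of type VI surround cells, and FACIT collagens sit on the surface of fibrils. Osteoblasts are the main makers of type I collagen in bone, and osteocytes descend from them.

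Libraries held 14853290 to 15866385 gene counts after phlebotomy and 11219243 to 19015588 in controls, where 3 counts equal 0.18 to 0.195 CPM and 0.164 to 0.296 CPM (counts scaled to library size with TMM factors). The osteocyte markers Dmp1 and Mepe averaged 18320 ± 5977 and 1905 ± 523 CPM after phlebotomy, and 34360 ± 13530 and 3136 ± 727 CPM in controls (SD, n = 3). Markers of marrow cells were detected too, with 8 neutrophil markers summing to 19140 to 27630 CPM after phlebotomy and to 15140 to 35430 CPM in controls. On the first principal component of all genes tested, phlebotomy 2 lay at -6.79, and phlebotomy 1 and 4 at 57.2 and 44.3. Control 1 lay at -59.4, and control 2 and 4 at -17.7 and -17.6. Compared pair by pair in counts, phlebotomy 2 and 4 were the closest phlebotomy pair. Their mean squared difference was 34.3 times the counting variance, against 40.5 for phlebotomy 1 and 4 and 60.2 for phlebotomy 1 and 2. Phlebotomy 2 also held 2288 counts on a Neo row and 920 on an EGFP row. Each other library held at most 12 and 6, although all samples carry the label WT. Calls that change without phlebotomy 2 are therefore given both ways for the genes named. On the first principal component phlebotomy 2 is the phlebotomy library nearest the controls, so leaving it out favours larger group differences. No other fit with a library left out called a collagen gene.

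Promoter windows from RefSeq (build GRCm38.p6, 250 bases before to 50 after the annotated start) were found for 34 of the 43 genes. They are shown for the most abundant chain that has one, Col1a2 (chr6:4505368-4505667, plus strand), and for 3 genes whose phlebotomy and control libraries did not overlap, Col11a2 (chr17:34038888-34039187, plus strand), Col5a1 (chr2:27886175-27886474, plus strand) and Col13a1 (chr10:61979059-61979358, minus strand). Capitals mark TATAAA, the TATA box, CCAAT, the site of NF-Y, GGGCGG, a GC box, and AACCACA, a RUNX site, on either strand.
Col1a2: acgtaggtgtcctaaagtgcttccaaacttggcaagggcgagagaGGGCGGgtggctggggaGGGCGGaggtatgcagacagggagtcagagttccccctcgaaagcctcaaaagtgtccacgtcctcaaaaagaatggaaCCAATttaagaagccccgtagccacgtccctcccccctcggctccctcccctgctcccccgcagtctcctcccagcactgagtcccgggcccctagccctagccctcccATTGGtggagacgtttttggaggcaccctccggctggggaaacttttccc
Col11a2: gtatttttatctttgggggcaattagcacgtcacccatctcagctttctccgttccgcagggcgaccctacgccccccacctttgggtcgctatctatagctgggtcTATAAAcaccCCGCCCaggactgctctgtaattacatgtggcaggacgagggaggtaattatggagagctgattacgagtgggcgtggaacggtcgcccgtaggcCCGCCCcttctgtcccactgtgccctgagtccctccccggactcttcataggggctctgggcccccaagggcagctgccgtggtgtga
Col5a1: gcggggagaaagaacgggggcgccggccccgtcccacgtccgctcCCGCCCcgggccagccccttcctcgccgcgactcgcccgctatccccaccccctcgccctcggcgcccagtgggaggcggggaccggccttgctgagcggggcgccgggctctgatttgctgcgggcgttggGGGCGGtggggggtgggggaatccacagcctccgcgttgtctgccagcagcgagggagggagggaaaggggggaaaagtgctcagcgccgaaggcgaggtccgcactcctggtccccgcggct
Col13a1: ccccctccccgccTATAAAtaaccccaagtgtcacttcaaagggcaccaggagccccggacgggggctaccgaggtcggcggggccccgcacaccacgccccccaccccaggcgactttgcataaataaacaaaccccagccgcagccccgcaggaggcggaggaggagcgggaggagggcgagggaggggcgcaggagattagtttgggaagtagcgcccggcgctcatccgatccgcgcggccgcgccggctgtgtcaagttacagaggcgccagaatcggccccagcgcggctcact

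On either strand, GGGCGG lay in the windows of 21 of 34 collagen genes (61.8%), where 35.7% of all 32851 windows hold it. CCAAT lay in 13 (38.2%, against 37.4% of all windows), TATAAA in 5 (14.7%, against 13.6%) and AACCACA in 1 (2.94%, against 5.27%). The 34 genes had 37 windows. A gene was counted if any of its windows held the motif, while the shares of all windows count each window singly. ATTGG, the reverse of CCAAT, can share bases with GGGCGG, and a match describes the window only. None of the windows shown holds AACCACA. RefSeq starts differ from the GENCODE gene starts given below for some genes. Collagen windows, the first listed for each gene, had a median GC content of 60.2%, against 52.7% for all windows.

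Col4a1 and Col4a2, the chains of the basement membrane network, lie head to head on chromosome 8. Their RefSeq windows share 78 bases, chr8:11312777-11312854, which are in capitals in the Col4a2 window (chr8:11312555-11312854, plus strand). It is shown because both genes had like values below.
Col4a2: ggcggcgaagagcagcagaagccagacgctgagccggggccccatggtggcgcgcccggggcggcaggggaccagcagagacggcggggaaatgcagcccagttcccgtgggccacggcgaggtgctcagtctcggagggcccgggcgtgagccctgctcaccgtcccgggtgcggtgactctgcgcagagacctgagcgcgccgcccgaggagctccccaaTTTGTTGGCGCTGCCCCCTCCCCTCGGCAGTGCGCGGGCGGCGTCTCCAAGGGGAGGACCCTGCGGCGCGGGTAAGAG
The annotated starts give the first exons of the pair 22 bases in common. The counting is not stated to use strand, so reads over those bases cannot be assigned to either gene. Other exon overlaps between a member and a neighbouring gene covered at most 6.07% of the member's exons, the highest being Col9a3 with Tcfl5.

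Type I collagen dominated the family. Col1a1 and Col1a2 together took 87.6% to 92.5% of all collagen counts after phlebotomy and 91.4% to 92.2% in controls. The family took 1.34%, 4.08% and 1.95% of gene counts in phlebotomy 1, 2 and 4, and 5.36%, 3.88% and 3.96% in control 1, 2 and 4. The 95% exact (Clopper-Pearson) counting intervals are narrow, from 4.07% to 4.09% in phlebotomy 2 and from 3.87% to 3.89% in control 2, and they cover counting error only. Phlebotomy 1 and 4 lay below all controls, and phlebotomy 2 lay among them. The mean was 2.46% ± 1.44 after phlebotomy and 4.40% ± 0.83 in controls (SD, n = 3, two-sided exact permutation p 0.3, where 0.1 is the smallest possible). Without Col1a1 and Col1a2 the share was 0.166%, 0.308% and 0.220% in phlebotomy 1, 2 and 4, and 0.416%, 0.333% and 0.309% in control 1, 2 and 4. All phlebotomy values then lay below all control values; phlebotomy 2 and control 4 were nearly equal. This gave the smallest possible exact permutation p of 0.1.

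**Figure D1:**
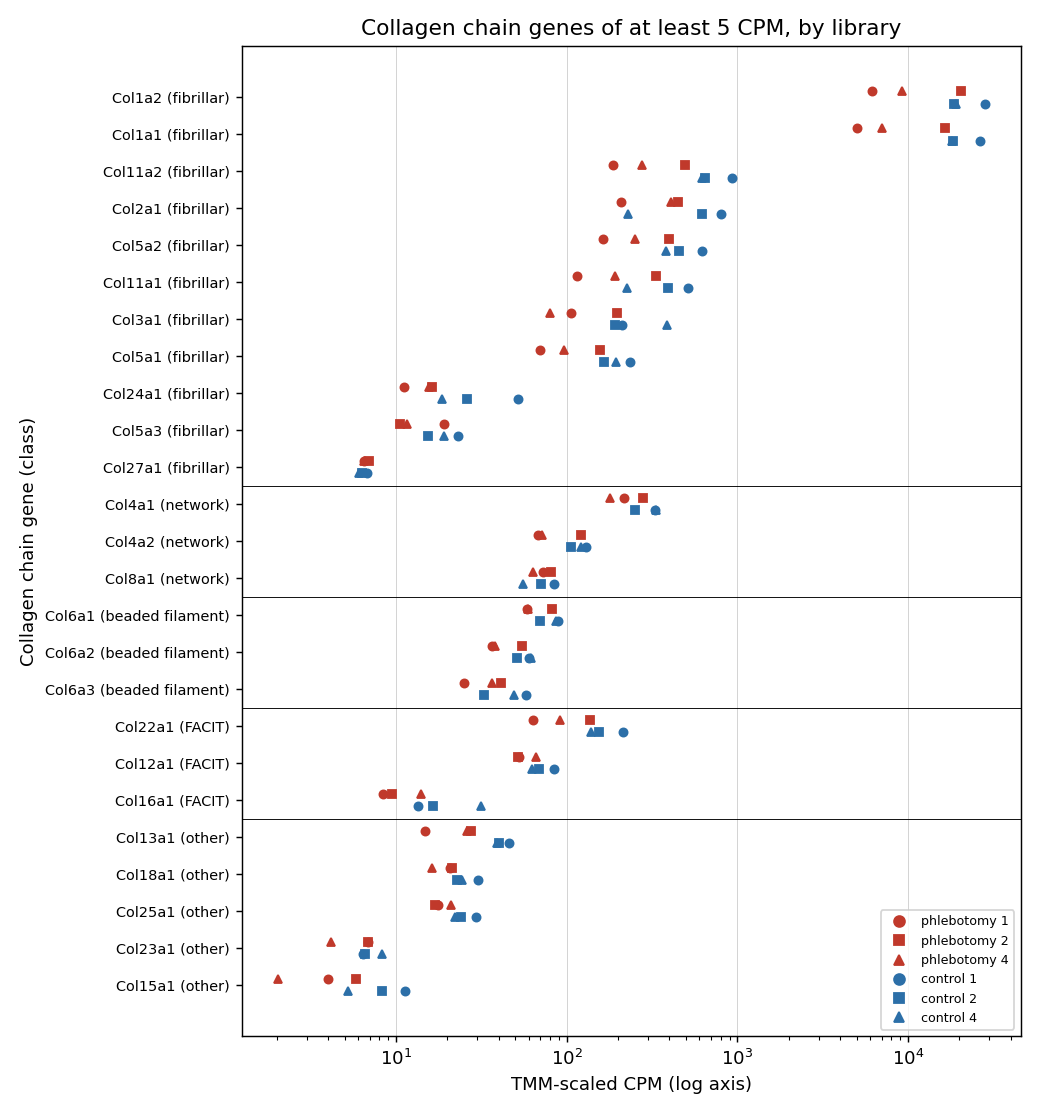
TMM-scaled CPM (log axis) of the 25 collagen chain genes with a mean of at least 5 CPM, 1 row a gene, grouped by class. Red symbols are the 3 phlebotomy libraries and blue symbols the 3 control libraries. Phlebotomy 2 (red squares) lies near the controls for most fibrillar genes, while phlebotomy 1 (red circles) is the lowest of the 6 for Col1a1 and Col1a2.

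Over all 18838 genes tested, no collagen gene passed an adjusted p of 0.05 with edgeR's quasi-likelihood test, in a comparison that called 0% of genes lower and 0.0159% higher. Of the 41 members that passed the low-count filter, 26 had a log2 fold change below 0, against 50.2% of all genes tested. At an unadjusted p under 0.05 there were 14 lower members, where the same rule takes 9.42% of all genes, and 2 higher members, where it takes 7.01%. The 14 became 7 without control 1, where the rule takes 1170 of 20434 genes as lower. They became 6 without phlebotomy 1, where it takes 801 of 19366. Groups did not overlap for 9 members that were lower and 2 that were higher, against 11.2% and 10.1% of all genes. The median log2 fold change of the members was -0.40, and that of all genes tested -0.003. Without phlebotomy 2, edgeR called 11 members lower and none higher at an adjusted p under 0.05, in a fit that called 2.99% of 20300 genes lower and 1.75% higher. DESeq2 over all 6 libraries called 4 members lower and none higher, where it called 1.11% and 0.398% of genes, and 3 of those 4 (Col11a2, Col13a1 and Col5a1) were also among the 11. DESeq2 gave 16 of the members no adjusted p. With length and GC offsets, 10 members were lower and 4 higher at an unadjusted p under 0.05, where that fit takes 9.33% and 5.78% of all genes. With library totals in place of TMM, 10 were lower and 3 higher, where that fit takes 832 and 2454 of 18838 genes. Fewer cells of a type and less RNA per cell cannot be told apart in these bulk samples.

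**Figure D2:**
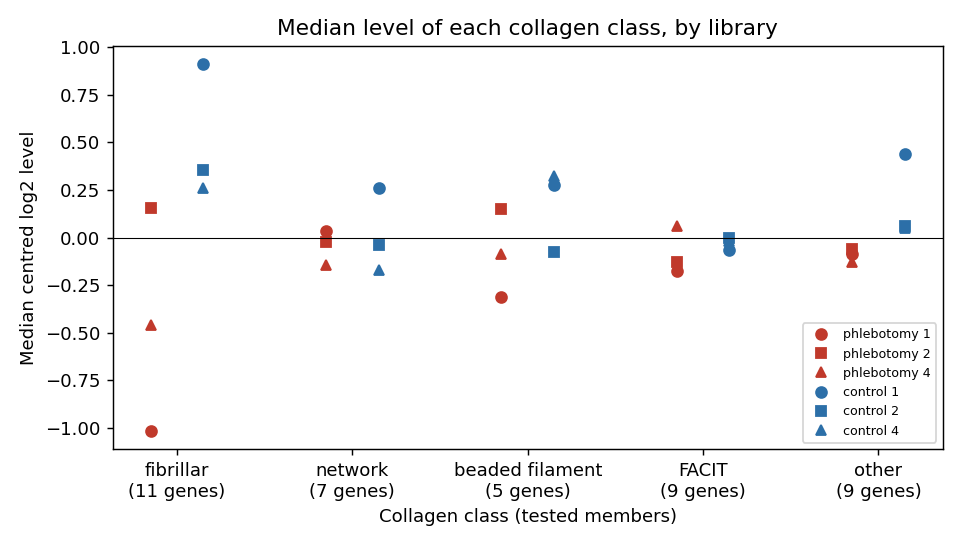
Median over the tested members of each collagen class of the log2 level (pseudocount 0.5 CPM) after each gene was centred on its mean of the 6 libraries. Each symbol is 1 library, phlebotomy in red and control in blue. The fibrillar class spans the widest range, from -1.02 in phlebotomy 1 to 0.91 in control 1.

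The fibrillar class was the lowest of the 5 after phlebotomy by its median log2 fold change of -0.88. In edgeR 10 of its 11 genes were below 0, and 7 of these had an unadjusted p under 0.05. Among all genes tested, 50.2% were below 0 and 9.42% met both conditions. All fibrillar genes averaged at least 5 CPM over the 6 libraries, and among genes at that level these shares were 59.7% and 13.9%. After centring each gene on its mean, the class median stood at -1.02 in phlebotomy 1, 0.16 in phlebotomy 2 and -0.46 in phlebotomy 4, against 0.91, 0.35 and 0.26 in control 1, 2 and 4. Phlebotomy 2 lay close under the lowest control, and phlebotomy 1 far under it. Without phlebotomy 2 the median log2 fold change was -1.30. In that fit 7 of the 11 genes were lower at an adjusted p under 0.05 in edgeR, a rule that takes 2.99% of all genes.

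Col1a1, which encodes the alpha 1 chain of type I collagen (chromosome 11, 94936224 to 94953042 on GRCm38), had 4995, 16540 and 7038 CPM in phlebotomy 1, 2 and 4, and 26400, 18300 and 18060 CPM in control 1, 2 and 4. All phlebotomy libraries lay below all controls, phlebotomy 2 by little. Its log2 fold change was -1.14 ± 0.38 (SE, edgeR adjusted p 0.204), and -1.84 without phlebotomy 2 (edgeR adjusted p 0.0187). Col1a2, which encodes the alpha 2 chain (chromosome 6, 4504814 to 4541544), had 6156, 20530 and 9210 CPM in phlebotomy 1, 2 and 4, and 28310, 18530 and 19100 CPM in control 1, 2 and 4. Phlebotomy 2 lay above control 2 and 4, so the groups overlapped. The log2 fold change of Col1a2 was -0.88 ± 0.38 (SE, edgeR adjusted p 0.278), -1.56 without phlebotomy 2 (edgeR adjusted p 0.0333) and -0.54 without phlebotomy 1 (edgeR adjusted p 0.724).

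Per kilobase of the longest coding transcript, Col1a2 averaged 2237 CPM after phlebotomy and 4110 CPM in controls, and Col1a1 1606 and 3528 CPM per kilobase in the same order. The next genes on this scale, Col2a1 and Col11a2, averaged 69.6 and 52.8 CPM per kilobase after phlebotomy, and 108 and 121 CPM per kilobase in controls. Type I chains thus stood more than an order of magnitude above every other chain in both groups.

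The minor fibrillar chains of types V and XI join type I and type II fibrils and set their diameter. Col11a2 (chromosome 17, 34039437 to 34066685) had 188, 494 and 276 CPM in phlebotomy 1, 2 and 4, and 933, 645 and 619 CPM in control 1, 2 and 4. The groups did not overlap, and its log2 fold change of -1.20 ± 0.31 was the lowest of the family (SE, edgeR adjusted p 0.160, DESeq2 adjusted p 0.00894, and edgeR adjusted p 0.0125 without phlebotomy 2). With length and GC offsets Col11a2 stood at -0.89, and Col24a1 was the lowest at -1.03. Without phlebotomy 2 Col11a2 stood at -1.70, and Col1a1 was the lowest at -1.84. Col11a1 had 115, 334 and 192 CPM in phlebotomy 1, 2 and 4, and 516, 390 and 226 CPM in control 1, 2 and 4. Its groups overlapped through phlebotomy 2 and control 4 (edgeR adjusted p 0.374 for a log2 fold change of -0.82 ± 0.42 SE). It was -1.34 without phlebotomy 2 (edgeR adjusted p 0.0426), -0.49 without phlebotomy 1 and -0.53 without control 1.

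Col5a1 (chromosome 2, 27886425 to 28039514) had 69.6, 157 and 95.8 CPM in phlebotomy 1, 2 and 4, and 234, 165 and 195 CPM in control 1, 2 and 4. Its groups did not overlap (edgeR adjusted p 0.173 for a log2 fold change of -0.88 ± 0.25 SE, DESeq2 adjusted p 0.0432, and edgeR adjusted p 0.0159 without phlebotomy 2). Col5a2 had 164, 400 and 253 CPM in phlebotomy 1, 2 and 4, and 618, 454 and 380 CPM in control 1, 2 and 4. Only phlebotomy 2 and control 4 crossed (edgeR adjusted p 0.213 for a log2 fold change of -0.83 ± 0.29 SE). It was -1.26 without phlebotomy 2 (edgeR adjusted p 0.0283) and -0.54 without phlebotomy 1. Col5a3, a type V chain of narrower expression, was at 13.7 ± 4.67 and 19.2 ± 3.91 CPM after phlebotomy and in controls (SD, n = 3, edgeR adjusted p 0.350), and here phlebotomy 1 was the highest of its group, at 19.1 CPM.

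Col3a1, the single chain of type III collagen of vessels and soft connective tissue, had 105, 196 and 80.1 CPM in phlebotomy 1, 2 and 4, and 210, 193 and 389 CPM in control 1, 2 and 4. Phlebotomy 2 lay level with control 1 and 2, and control 4 was the highest (edgeR adjusted p 0.229 for a log2 fold change of -1.05 ± 0.37 SE, and edgeR adjusted p 0.0236 without phlebotomy 2), and without control 4 it stood at -0.69. Col3a1 and Col5a2 are neighbours on chromosome 1, at 45311538 to 45349706 and 45374321 to 45503282 on opposite strands, with their 3′ ends facing.

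Col24a1, a fibrillar chain of a separate branch found in forming bone (chromosome 3, 145292472 to 145552011), had 11.1, 16.3 and 15.7 CPM in phlebotomy 1, 2 and 4, and 51.6, 26.2 and 18.6 CPM in control 1, 2 and 4. The groups did not overlap, though control 1 was far above the other controls. Its log2 fold change was -1.15 ± 0.32 (SE, edgeR adjusted p 0.172, DESeq2 adjusted p 0.0222), and -0.65 without control 1. Col27a1, of the same branch, averaged 6.67 ± 0.26 CPM after phlebotomy and 6.38 ± 0.39 CPM in controls (SD, n = 3, edgeR adjusted p 0.903).

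Col2a1, the main collagen of cartilage, had 207, 450 and 409 CPM in phlebotomy 1, 2 and 4, and 799, 623 and 230 CPM in control 1, 2 and 4. The groups overlapped, with control 4 next to phlebotomy 1 at the low end (edgeR adjusted p 0.547 for a log2 fold change of -0.63 ± 0.48 SE, which ran from -1.03 to -0.27 with a library left out). The type XI chains Col11a1 and Col11a2 stood at levels of the same order as Col2a1, while the listed chondrocyte markers stood at far lower CPM. Acan, the cartilage proteoglycan, was at 0.586 to 1.52 CPM after phlebotomy and 1.04 to 3.29 CPM in controls, and Cnmd, chondromodulin, at 0.2995 to 0.456 CPM and 0.219 to 1.41 CPM in the same order. The 10 chondrocyte markers summed to 29.8 to 46.9 CPM after phlebotomy and 56.3 to 69.1 CPM in controls, of which Sox9, the cartilage transcription factor, gave 17.1 to 23.8 CPM and 32.2 to 41.6 CPM and Comp most of the rest, and 5 of the 10 passed the low-count filter (median log2 fold change -0.87). Col10a1, the chain of hypertrophic cartilage, had 55 counts after phlebotomy and 87 in controls. The part of cartilage cells in these levels was not tested.

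**Figure D3:**
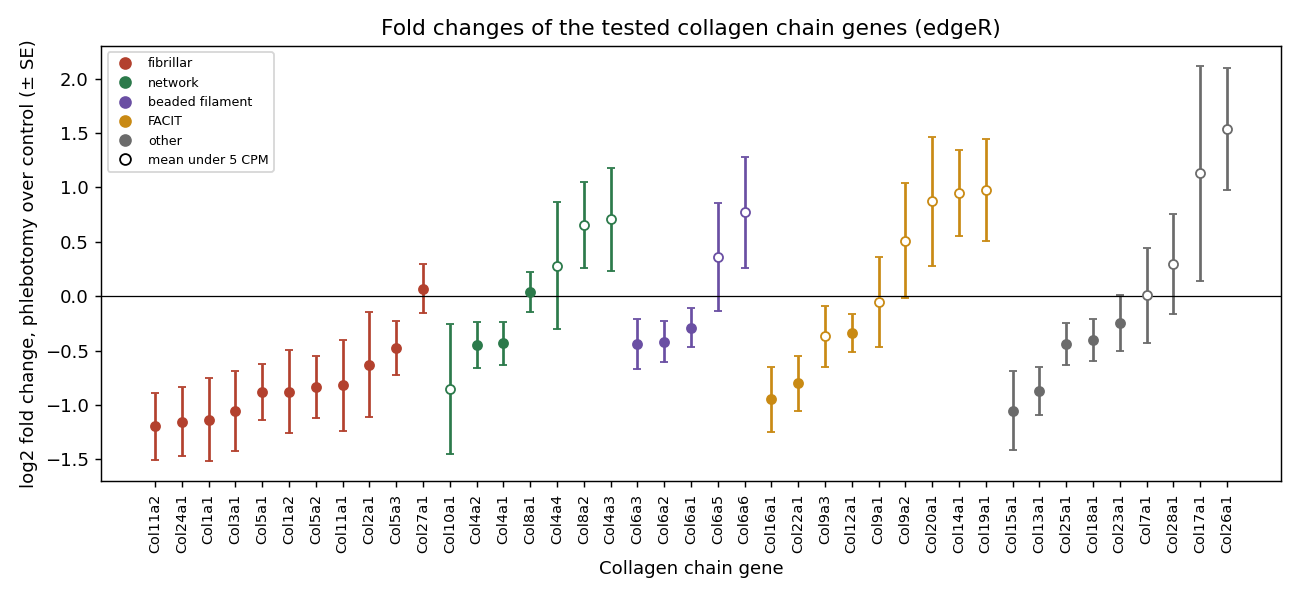
Log2 fold change, phlebotomy over control, of the 41 tested collagen chain genes with its SE, ordered within classes. Open symbols are genes with a mean under 5 CPM. Of the fibrillar genes 10 of 11 lie below 0, where 59.7% of all genes of at least 5 CPM do. The positive values of the other classes are nearly all open symbols.

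Among the network collagens, the basement membrane chains Col4a1 and Col4a2 had like values. Col4a1 (chromosome 8, 11198423 to 11312826) had 217, 280 and 179 CPM in phlebotomy 1, 2 and 4, and 330, 252 and 333 CPM in control 1, 2 and 4. Col4a2 (chromosome 8, 11312805 to 11449287) had 67.9, 122 and 72.1 CPM in phlebotomy 1, 2 and 4, and 130, 106 and 122 CPM in control 1, 2 and 4. For both genes phlebotomy 1 and 4 lay below all controls and phlebotomy 2 above the lowest control. The log2 fold changes were -0.44 ± 0.20 and -0.45 ± 0.21 (SE, edgeR adjusted p 0.291 and 0.308), and -0.66 and -0.81 without phlebotomy 2, where Col4a2 alone passed (edgeR adjusted p 0.0718 and 0.0339). With length and GC offsets they were -0.18 and -0.17, and Col4a2 stood at -0.27 without phlebotomy 1. Endothelial markers, from cells that make basement membrane, summed to 540, 645 and 533 CPM in phlebotomy 1, 2 and 4, and 652, 542 and 622 CPM in control 1, 2 and 4. Phlebotomy 2 was thus the highest of its group for this sum too, though not by gene for Emcn, Egfl7 and Tek. Of the 10 markers 7 had a log2 fold change below 0. Emcn, a large part of the sum, was higher in all phlebotomy libraries than in controls (0.33, edgeR adjusted p 0.323). The part of these markers in the type IV levels was not tested.

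Col8a1, a chain of the hexagonal networks of vessel walls, had 72.5, 80.6 and 63.8 CPM in phlebotomy 1, 2 and 4, and 84.6, 71.1 and 55.4 CPM in control 1, 2 and 4. These ranges covered each other (edgeR adjusted p 0.931 for a log2 fold change of 0.04 ± 0.18 SE). Its partner Col8a2 had 7.25, 3.26 and 2.65 CPM in phlebotomy 1, 2 and 4, and 4.04, 2.46 and 2.02 CPM in control 1, 2 and 4, with overlap (edgeR adjusted p 0.417 for a log2 fold change of 0.65 ± 0.39 SE). Without phlebotomy 1, its highest library, Col8a2 stood at 0.11, and without control 4 at 0.43. Col4a3, Col4a4 and Col4a5, chains of the kidney and lung basement membrane, averaged 0.770 to 1.71 CPM after phlebotomy and 0.341 to 1.05 CPM in controls, and Col4a5 did not pass the filter.

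The beaded-filament chains Col6a1, Col6a2 and Col6a3, which assemble together into type VI collagen, had similar fold changes. Col6a1 had 58.8, 82.1 and 59.2 CPM in phlebotomy 1, 2 and 4, and 88.7, 69.4 and 86.6 CPM in control 1, 2 and 4. Col6a2 had 36.4, 54.8 and 38.1 CPM in phlebotomy 1, 2 and 4, and 60.0, 51.1 and 61.8 CPM in control 1, 2 and 4. Col6a3 had 24.9, 41.1 and 36.7 CPM in phlebotomy 1, 2 and 4, and 57.5, 32.8 and 49.4 CPM in control 1, 2 and 4. In each of these genes phlebotomy 2 lay above control 2, so that the groups overlapped. The log2 fold changes were -0.29 ± 0.18, -0.42 ± 0.19 and -0.44 ± 0.23 (SE), with edgeR adjusted p of 0.441, 0.292 and 0.354. With length and GC offsets they were -0.10, -0.22 and -0.28. With a library left out they ran from -0.50 to -0.18 for Col6a1, -0.67 to -0.29 for Col6a2 and -0.67 to -0.23 for Col6a3, none passing in edgeR. Col6a4, Col6a5 and Col6a6, a cluster of alternative chains on chromosome 9, averaged 0.771 to 1.42 CPM after phlebotomy and 0.433 to 1.127 CPM in controls. Col6a4 did not pass the filter, and Col6a6 was 1 of the 2 members whose phlebotomy libraries all lay above the controls (edgeR adjusted p 0.467).

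The FACIT genes split by level. Col22a1, a chain of tissue junctions (chromosome 15, 71795795 to 72034227), had 63.2, 137 and 91.6 CPM in phlebotomy 1, 2 and 4, and 215, 155 and 139 CPM in control 1, 2 and 4. The groups did not overlap, by a small margin between phlebotomy 2 and control 4 (edgeR adjusted p 0.196 for a log2 fold change of -0.80 ± 0.25 SE, and edgeR adjusted p 0.0277 without phlebotomy 2). Col16a1 had 8.45, 9.51 and 14.03 CPM in phlebotomy 1, 2 and 4, and 13.5, 16.6 and 31.5 CPM in control 1, 2 and 4. Only phlebotomy 4 and control 1 crossed, and control 4 was the highest (edgeR adjusted p 0.196 for a log2 fold change of -0.95 ± 0.30 SE). Without control 4 it stood at -0.53, and with length and GC offsets at -0.60.

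Col12a1, a long FACIT chain of fibril surfaces, had 52.7, 52.1 and 66.4 CPM in phlebotomy 1, 2 and 4, and 84.2, 69.1 and 62.9 CPM in control 1, 2 and 4. Phlebotomy 4 lay above control 4 (edgeR adjusted p 0.354 for a log2 fold change of -0.34 ± 0.18 SE). The type IX chains of cartilage fibrils were low. Col9a1 had 1.74, 1.17 and 1.14 CPM in phlebotomy 1, 2 and 4, and 0.888, 1.31 and 1.95 CPM in control 1, 2 and 4. Col9a2 had 1.38, 0.456 and 0.885 CPM in phlebotomy 1, 2 and 4, and 0.888, 0.601 and 0.470 CPM in control 1, 2 and 4. Both overlapped between groups, and Col9a3 averaged 2.80 ± 0.18 and 3.62 ± 0.55 CPM after phlebotomy and in controls (SD, n = 3, edgeR adjusted p 0.523), without overlap. Col19a1 and Col20a1 averaged 1.73 and 0.901 CPM after phlebotomy and 0.881 and 0.468 CPM in controls (edgeR adjusted p 0.319 and 0.476).

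Among the other collagens, Col13a1 had the smallest p of the family. It encodes a transmembrane collagen (chromosome 10, 61838236 to 61979108), and had 14.9, 27.4 and 25.9 CPM in phlebotomy 1, 2 and 4, and 46.1, 40.1 and 39.0 CPM in control 1, 2 and 4. All phlebotomy libraries, phlebotomy 2 included, lay well below all controls. Its log2 fold change was -0.88 ± 0.22 (SE, edgeR adjusted p 0.148, DESeq2 adjusted p 0.0287, and edgeR adjusted p 0.0339 without phlebotomy 2), and it ran from -1.07 to -0.62 with a library left out.

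Col15a1 and Col18a1 encode the multiplexins of basement membrane zones. Col15a1 had 4.01, 5.86 and 2.02 CPM in phlebotomy 1, 2 and 4, and 11.3, 8.25 and 5.24 CPM in control 1, 2 and 4, with phlebotomy 2 above control 4 (edgeR adjusted p 0.211 for a log2 fold change of -1.05 ± 0.36 SE, and edgeR adjusted p 0.0459 at -1.48 without phlebotomy 2). Col18a1, the precursor of endostatin, had 20.8, 21.2 and 16.2 CPM in phlebotomy 1, 2 and 4, and 30.4, 22.6 and 24.3 CPM in control 1, 2 and 4. Its groups did not overlap, yet phlebotomy 2 and control 2 were close (edgeR adjusted p 0.321 for a log2 fold change of -0.40 ± 0.20 SE, and -0.08 with length and GC offsets). Col25a1, a transmembrane collagen known from neurons, did not overlap either, at 18.5 ± 2.11 CPM after phlebotomy and 25.2 ± 3.66 CPM in controls (SD, n = 3, edgeR adjusted p 0.272 at a log2 fold change of -0.44). For Col23a1, another transmembrane collagen, the edgeR adjusted p was 0.652 and the log2 fold change -0.25. Col7a1, the anchoring fibril collagen of skin, and Col28a1 averaged 1.71 and 1.11 CPM after phlebotomy and 1.73 and 0.899 CPM in controls (edgeR adjusted p 0.996 and 0.769).

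Members above and below 5 CPM differed in direction. Of the 25 members with a mean of at least 5 CPM over the 6 libraries, 23 had a log2 fold change below 0, where 59.7% of the 11429 genes at that level did. Their median was -0.63, with 14 lower at an unadjusted p under 0.05 in edgeR, a rule that takes 13.9% of the genes at that level. Of the 16 tested members under 5 CPM, 13 were above 0, where 64.4% of the 7409 genes at that level were, and their median was 0.58. The 5 CPM boundary was chosen after the values were seen. Just above it lay Col15a1 at 6.12 CPM, and just under it Col8a2 at 3.61 CPM.

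The 18 members under 5 CPM summed to 30.0, 20.9 and 32.9 CPM in phlebotomy 1, 2 and 4, and 22.4, 19.3 and 21.4 CPM in control 1, 2 and 4. Phlebotomy 1 and 4 were thus the highest. Per kilobase these members stood at 0.285, 0.198 and 0.312 CPM in phlebotomy 1, 2 and 4, and at 0.212, 0.183 and 0.203 CPM in control 1, 2 and 4. Over 1420 olfactory and vomeronasal receptor genes, which bone is not known to use, the level per kilobase was 0.0816, 0.0474 and 0.123 CPM in phlebotomy 1, 2 and 4, and 0.0401, 0.0447 and 0.0389 CPM in control 1, 2 and 4. These receptor reads were highest in the same libraries, and their part in the values of the low members was not tested. Col26a1, of no settled class, had the highest log2 fold change of the family, 1.54 ± 0.56 (SE, edgeR adjusted p 0.222), on 76 counts after phlebotomy and 24 in controls. Col14a1, a FACIT chain of soft tissue, had 142 and 65 counts in the same order (edgeR adjusted p 0.263 for a log2 fold change of 0.95 ± 0.40 SE, 0.47 at the lowest with a library left out). Col17a1, a hemidesmosome collagen of epithelia, had 32 counts after phlebotomy and 14 in controls, all 14 of them in control 2.

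**Figure D4:**
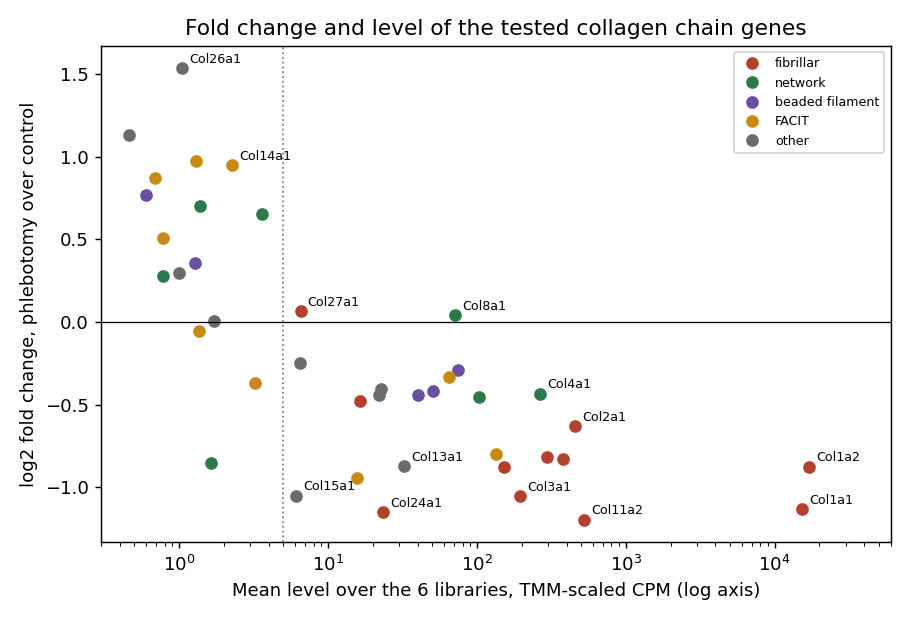
Log2 fold change, phlebotomy over control, against the mean TMM-scaled CPM over the 6 libraries (log axis) for the 41 tested collagen chain genes, coloured by class. The dotted line stands at 5 CPM. Right of it 23 of 25 genes lie below 0, and left of it 13 of 16 lie above 0.

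Ratios between chains within a library do not depend on library scaling. Each ratio took chains of a single collagen type, except Col3a1 over Col1a1, which sets type III against type I. Of 9 ratios, 3 did not overlap between groups. Col1a1 over Col1a2 was 0.811, 0.806 and 0.764 in counts in phlebotomy 1, 2 and 4, and 0.932, 0.988 and 0.945 in control 1, 2 and 4. Phlebotomy 2 lay with the other phlebotomy libraries on this measure, although its Col1a2 level lay within the range of the controls. The mean log2 ratio was -0.33 ± 0.05 after phlebotomy and -0.07 ± 0.04 in controls, a difference of -0.27 (SD, n = 3, exact permutation p 0.1, adjusted over the 9 ratios 0.3). With any library left out the difference ran from -0.29 to -0.24. The Col1a1 transcript has a GC content of 58.9% and that of Col1a2 55.7%. Over 18822 genes, which are not independent replicates, Spearman's rho between GC content and a library's deviation from the mean was -0.205, 0.199 and -0.299 in phlebotomy 1, 2 and 4, and 0.0415, 0.0896 and 0.290 in control 1, 2 and 4. With the length and GC trend taken out of each library the difference was -0.20, and the groups still did not overlap.

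Col6a1 over Col6a2 was 1.62, 1.498 and 1.56 in phlebotomy 1, 2 and 4, and 1.48, 1.36 and 1.40 in control 1, 2 and 4, a difference of 0.14 in log2. Col11a1 over Col11a2 was 0.613, 0.677 and 0.696 in phlebotomy 1, 2 and 4, and 0.554, 0.604 and 0.366 in control 1, 2 and 4, a difference of 0.41 in log2 that was 0.11 with the length and GC trend removed, where the groups overlapped, and 0.19 without control 4. Both had an exact permutation p of 0.1 and an adjusted p of 0.3. Groups of 3 libraries cannot give a p below 0.1. Col4a1 over Col4a2, from the shared promoter region, was 3.19, 2.30 and 2.49 in phlebotomy 1, 2 and 4, and 2.53, 2.38 and 2.73 in control 1, 2 and 4, with overlap (exact permutation p 0.9). Col3a1 over Col1a1 overlapped as well, at 0.0211, 0.0119 and 0.0114 in phlebotomy 1, 2 and 4, and 0.00795, 0.0106 and 0.0216 in control 1, 2 and 4 (exact permutation p 0.6). For Col5a1 over Col5a2, Col6a3 over Col6a1, Col8a1 over Col8a2 and Col9a1 over Col9a2 the log2 differences were -0.05, -0.14, -0.49 and -0.37, each with overlap. Without phlebotomy 1, Col6a3 over Col6a1 was -0.01 and Col8a1 over Col8a2 -0.07.

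**Figure D5:**
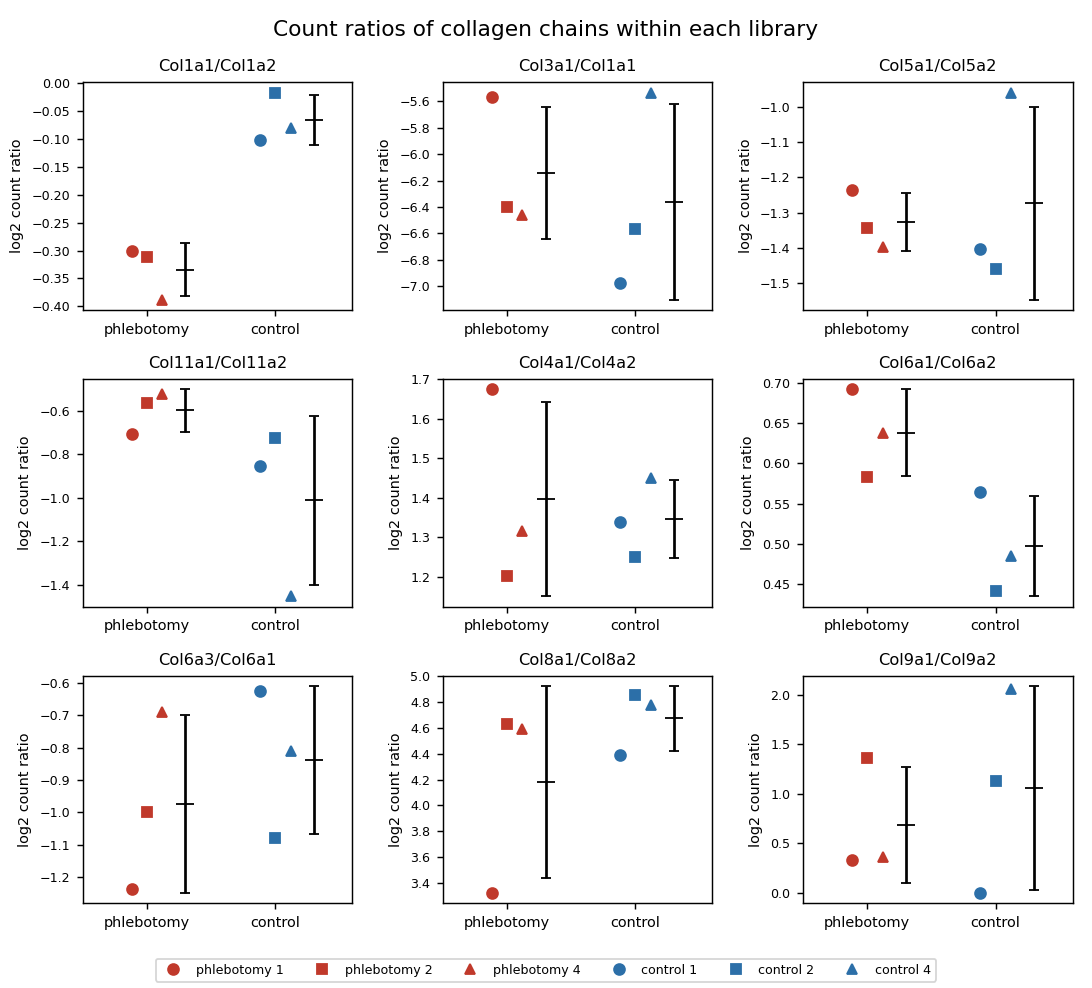
Log2 ratio of counts of paired collagen chains within each library, 1 panel a ratio, phlebotomy on the left and control on the right. Symbols are libraries, and the bar is the mean with its SD (n = 3). Col1a1/Col1a2 lies from -0.39 to -0.30 in phlebotomy libraries and from -0.10 to -0.02 in controls.

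All 6 lists of genes that build and handle collagen had a median log2 fold change below 0, and no gene of them passed over all genes in edgeR. An unadjusted p under 0.05 takes 9.42% of all genes as lower and 7.01% as higher. Without phlebotomy 2, an adjusted p under 0.05 takes 2.99% as lower and 1.75% as higher. Of the 23 genes of collagen folding and export, 19 were below 0 (median log2 fold change -0.48), 13 of them lower at an unadjusted p under 0.05 (9.42% of all genes). The 13 became 3 without phlebotomy 1, 7 without phlebotomy 4, 7 without control 1, and 6 with library totals or with block and offsets. In turn these fits take 801 of 19366, 1210 of 19406, 1170 of 20434, and 832 or 1309 of 18838 genes as lower. Creb3l1, a transcription factor of the secretory pathway that drives type I collagen in bone, was at 61.9 ± 21.2 CPM after phlebotomy and 113 ± 20.6 CPM in controls (SD, n = 3, edgeR adjusted p 0.160 at a log2 fold change of -0.87). P4ha2, a prolyl hydroxylase subunit, was at 53.3 ± 16.4 and 87.8 ± 17.8 CPM in the same order (log2 fold change -0.72, edgeR adjusted p 0.196). Without phlebotomy 2, 8 of the 23 were lower at an adjusted p under 0.05 in edgeR (2.99% of all genes), Creb3l1 among them at 0.0283.

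Of 12 genes of cleavage and crosslinking outside the cell, 10 were below 0 (median -0.46) and 3 lower at an unadjusted p under 0.05 (9.42% of all genes). The 3 became 8 without phlebotomy 2, 6 without control 2, 6 with no filter, 5 in limma-voom and 6 or 7 in limma-trend. In turn these fits take 2937 of 20300, 1391 of 20340, 2534 of 46504, 1805 of 18838, and 2480 or 2484 of 18838 genes as lower. Lox, the enzyme that starts crosslinking of fibrils, was at 422 ± 112 CPM after phlebotomy and 752 ± 206 CPM in controls (log2 fold change -0.83, edgeR adjusted p 0.172), and Loxl4, a related enzyme, stood at -0.85 on that scale (edgeR adjusted p 0.169, and 0.0361 without phlebotomy 2). Of 13 tested fibril partners, 11 were below 0 (median -0.55) and 7 lower at an unadjusted p under 0.05 (9.42% of all genes), with Thbs2 at -0.94 and Fn1, fibronectin, at -0.60. The 7 became 2 without phlebotomy 1, 4 without control 1, and 4 with the replicate block or library totals. In turn these fits take 801 of 19366, 1170 of 20434, and 1396 or 832 of 18838 genes as lower. Neither Thbs2 nor Fn1 passed (edgeR adjusted p 0.172 and 0.187, and 0.0525 and 0.0533 without phlebotomy 2).

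Among 11 collagen receptors, 9 were below 0 (median -0.50) and 6 lower at an unadjusted p under 0.05 (9.42% of all genes). Mrc2, an endocytic receptor for collagen fragments, had 62.4, 93.2 and 95.8 CPM in phlebotomy 1, 2 and 4, and 201, 146 and 131 CPM in control 1, 2 and 4. Itga11, a collagen-binding integrin chain, had 15.2, 20.1 and 19.9 CPM in phlebotomy 1, 2 and 4, and 32.6, 30.3 and 33.8 CPM in control 1, 2 and 4. Neither gene overlapped between groups, phlebotomy 2 included (log2 fold changes -0.93 and -0.81, edgeR adjusted p 0.139 for both). Without phlebotomy 2 the pair passed (edgeR adjusted p 0.0352 and 0.0334), among 4 receptors lower in that fit (2.99% of all genes). Of 10 tested breakdown genes 6 were below 0 (median -0.27) and 4 lower at an unadjusted p under 0.05 (9.42% of all genes), with Mmp14, a membrane collagenase, at -0.64 and Timp1, an inhibitor of such enzymes, at -0.52. Without phlebotomy 2 edgeR called 1 of the 10 lower, Mmp2, a gelatinase (-0.98, adjusted p 0.0397). It called 1 higher, Ctsk, the collagen-degrading protease of osteoclasts, at 1.21 (edgeR adjusted p 0.0283, against 0.85 and 0.405 with all libraries). Of 16 regulators 14 were below 0 (median -0.43) and 7 lower at an unadjusted p under 0.05 (9.42% of all genes), with Nfatc1 at -0.90 and Sox9 at -0.73. Without phlebotomy 2, 6 regulators passed (2.99% of all genes), Nfatc1 and Sox9 among them (edgeR adjusted p 0.0459 and 0.0451). With all libraries the lowest edgeR adjusted p of these last lists was 0.149, for Nfatc1.

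No cell type marker passed over all genes in edgeR with all libraries. At an unadjusted p under 0.05, edgeR took 8 of 10 osteocyte and 2 of 10 osteoblast markers as lower. So were 4 of 5 tested chondrocyte, 3 of 9 tested fibroblast and tendon and 1 of 7 tested smooth muscle and pericyte markers. Higher were 2 of 5 tested skeletal muscle, 2 of 7 tested erythroid, 1 of 8 neutrophil and 1 of 8 macrophage and osteoclast markers. That rule takes 9.42% of all genes as lower and 7.01% as higher. Without phlebotomy 2 edgeR called as lower 2 of 10 osteocyte markers (Fbln7 and Irx5, adjusted p 0.0159 and 0.032) and 4 of 10 osteoblast markers (Bglap, Bglap2, Smpd3 and Sp7, adjusted p 0.0333 to 0.0451). Sox9 of the chondrocyte list and Robo4 of the endothelial list (edgeR adjusted p 0.0457) were also lower there, and 2 of 8 macrophage and osteoclast markers higher (Adgre1 and Ctsk, edgeR adjusted p 0.0145 and 0.0283). That fit takes 2.99% of all genes as lower and 1.75% as higher. The 10 osteoblast markers were all below 0 (median log2 fold change -0.46) and summed to 25120, 26610 and 31740 CPM in phlebotomy 1, 2 and 4, and 40490, 32470 and 25160 CPM in control 1, 2 and 4. Most of each sum was Spp1 alone, so the sums follow that gene more than the list. Spp1 had 23080, 22710 and 29160 CPM in phlebotomy 1, 2 and 4, and 35480, 28960 and 22090 CPM in control 1, 2 and 4. Of 10 osteocyte markers 9 were below 0 (median -0.67), and of 9 tested fibroblast and tendon markers 8 (median -0.55). The 8 macrophage and osteoclast markers had a median of 0.30 and summed to 2582, 1015 and 2817 CPM in phlebotomy 1, 2 and 4, and 1045, 1313 and 1769 CPM in control 1, 2 and 4. Phlebotomy 1 and 4, the libraries with the least collagen, had the highest of these sums, and phlebotomy 2 the lowest. Ctsk and Acp5 made up most of each sum. By gene, phlebotomy 1 and 4 were the highest libraries for Ctsk, Acp5, Adgre1, Cd68 and C1qa, but not for Csf1r, Ocstamp and Mrc1. The endothelial (-0.23), smooth muscle and pericyte (-0.05), reticular and adipocyte (-0.18), skeletal muscle (0.07), Schwann cell (-0.002), erythroid (0.25) and neutrophil (-0.04) lists had the medians given in brackets. Skeletal muscle markers summed to 15.2 to 16.8 CPM after phlebotomy and 13.0 to 14.4 CPM in controls, and Schwann cell markers to 31.9 to 33.8 CPM and 27.8 to 34.3 CPM. The part of cell composition in the collagen values was not tested.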

How the data were processed

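RNA-seq counts of 6 femur libraries were analysed. Per the labels, libraries were made with Nextera XT, which does not mark strand, and read as 126 bp pairs. Per the submitters' processing notes, the builds were mm10 and GRCm38.p3 and the tools limma, edgeR, DESeq2 and STAR (2.5.2a and 2.7.3a), with no step given for any, and the counting program is not given in the sources used here. The authors deposited raw counts per gene (55440 rows, 19 of which name transgene or vector sequences and were left out, 0.00278% to 0.0284% of counts) and a filtered copy. They also deposited a signal table of CPM scaled with TMM, per the file's name, whose columns are the filtered counts multiplied by 1 factor a library.

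Genes were filtered with filterByExpr (minimum count 10), then TMM scaling and the robust quasi-likelihood F-test followed (edgeR 4.0.16, R 4.3.3), without covariates and with Benjamini-Hochberg adjustment over 18838 genes. SEs were approximated from the F statistic. The code was tested on simulated data. Levels are TMM-scaled CPM. Coordinates, transcript length and GC content came from GENCODE M21 (GRCm38), which held 99.5% of gene IDs. Alternatives used DESeq2 1.42.0 and limma 3.58.1, other scaling and filters, pseudocounts of 0.5 and 1 on the deposited signal, a replicate block, length and GC offsets, and leaving out each library. The length and GC offsets for ratios and the 5 CPM boundary were added after seeing the data. Figures used matplotlib 3.10.9 in Python 3.11.15.

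Columns were tied to groups, not to single samples, because column numbers run 1, 2 and 4 and titles 1 to 3. No library pair agreed within sampling noise (mean squared difference at least 24.3 times the counting variance). The members and lists were chosen with earlier results of these data known. Library values are given for the 2 highest and the 2 smallest-p genes of each class and for chains of the 9 ratios. Col2a1, Cnmd, Mmp2, Ctsk, Spp1, the macrophage and osteoclast markers, the markers named as called without phlebotomy 2, and members given as means were named after their values were seen. From each pathway list the 2 genes of smallest p are named.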

Additional observations from a re-analysis of the deposited data

Results flagged for a closer look

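Reads over vector or transgene rows stood out in phlebotomy 2, a library labelled WT. These rows lie outside the gene counts used for the comparisons. The Neo row held 2288 counts there, and at most 12 in a control library. The EGFP row held 920 counts, against at most 6 in a control, and the DsRed row 403, the Venus row 75 and the mLamp3 row 24, where each control held 0. Phlebotomy 2 is also the phlebotomy library whose Col1a2 level lay within the range of the controls, and the part of these reads in that level was not tested.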

How the results depend on the processing

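The count of collagen genes called at an adjusted p of 0.05 was 0 in edgeR over all libraries (16 at an unadjusted p under 0.05) and 0 in limma-voom and limma-trend. It was 4 in DESeq2, 11 in edgeR with no filter on low counts, and 0 to 11 with a library left out, 11 coming without phlebotomy 2. Of those 11, 9 were also called with no filter. The fit with no filter called 411 of 46504 genes lower and 166 higher. Without phlebotomy 2 edgeR called 607 of 20300 genes lower and 356 higher, and DESeq2 called 210 of 18838 lower and 75 higher. The 14 genes lower at an unadjusted p under 0.05 became 6 to 18 with a library left out, with 7 without control 1 and 6 without phlebotomy 1. The same rule takes 1170 of 20434 genes without control 1, 801 of 19366 without phlebotomy 1 and 2937 of 20300 without phlebotomy 2. The 2 higher genes became 1 in limma-voom and in limma-trend with either pseudocount, 4 with length and GC offsets, and 1 to 5 with a library left out. The median log2 fold change of -0.40 was -0.16 with length and GC offsets, -0.17 with the replicate block and these offsets, -0.63 over members of at least 5 CPM, and -0.49 to -0.28 with a library left out. Library totals alone shifted the median of all genes to 0.14 and gave a collagen median of -0.26. Same-numbered libraries did not deviate together (correlations of -0.101, -0.114 and -0.0542), and the replicate block gave a median of -0.41 and 14 lower genes, with 0 genes called.

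For the 23 genes chosen by rule for library values, 12 of 414 pairings of a gene with an alternative turned the direction, all in Col8a1 and Col9a1. Outside those 23, Col27a1 (-0.005 at the lowest), Col7a1 (-0.426), Col28a1 (-0.047), Col4a4 (-0.252) and Col6a5 (-0.128) also turned with a library left out. Col8a1 was at -0.007 with no filter, -0.04 on the authors' filtered rows, -0.032 in limma-trend with either pseudocount and -0.133 and -0.083 without control 4 and phlebotomy 2 (range -0.133 to 0.180 with a library left out). Col9a1 was at 0.033 with upper quartile scaling, 0.078 with library totals, 0.068 with offsets, 0.065 with block and offsets, and 0.237 and 0.054 without control 4 and phlebotomy 4 (range -0.278 to 0.237). Ratios reversed for Col3a1/Col1a1 (-0.070 and -0.091 without phlebotomy 1 and control 1, range -0.091 to 0.629), Col5a1/Col5a2 (0.106 with offsets, range -0.145 to 0.104, the highest without control 4), Col4a1/Col4a2 (-0.010 with offsets, range -0.088 to 0.149, the lowest without phlebotomy 1) and Col9a1/Col9a2 (range -0.902 to 0.124, the highest without control 4). The share difference of -1.94 percentage points ran from -2.75 to -1.38 with a library left out, and 3 counts, which equal 0.164 to 0.296 CPM, limit what can be seen in low genes. The 5 CPM boundary was set after seeing the data. The cause of these changes was not tested.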
